A study of Mus musculus with 6 samples.

Results

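Heat shock chaperones of the cytosol and the mitochondria were examined in mouse stellate ganglia collected 8 weeks after surgery, which was either transverse aortic constriction (TAC) or a sham procedure. The members were chosen by a rule on gene symbols that was set with earlier results of these data known. It took every gene of the Hspa, Hspb, Hspd, Hspe, Hsph, Hsp90a, Dnaja, Dnajb, Dnajc, Bag, Ahsa and Hsf symbol series that had a probe set with 1 symbol on the array. It left out Hspg2, which is no chaperone, and 6 chaperones of the endoplasmic reticulum (Hspa5, Hsp90b1, Dnajb9, Dnajb11, Dnajc3 and Dnajc10). Family members under other symbols, such as the mitochondrial HSP90 Trap1 and the small heat shock protein Cryab, were thus not members, while Hspa13 and Dnajc1, which are also tied to the endoplasmic reticulum, were. This gave 77 genes on 175 probe sets, among 18193 genes on the array. Of these, 60 genes on 108 probe sets had a mean log2 intensity of at least 4 over the 6 arrays and were tested, among 9955 tested genes.

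Stellate ganglia hold the cell bodies of sympathetic neurons that supply the heart. TAC ties a band around the aortic arch, so that the left ventricle pumps against a raised pressure, and the sham procedure is the surgery without that narrowing. Both groups were male C57/Bl6 mice, with 3 arrays of TAC ganglia and 3 arrays of sham ganglia, and RNA from both ganglia of 1 animal went onto 1 Affymetrix array. The arrays carry the letters A, B and C in each group, and values are given in that order. Both groups had the defining transcripts of sympathetic neurons: all 11 such markers with a probe set were above the floor, and Th, the rate-limiting enzyme of noradrenaline synthesis, had log2 intensities of 13.77, 13.88 and 13.86 in TAC ganglia, against 13.55, 13.56 and 13.66 in sham ganglia. The summed linear intensity of these markers was 118890.2 to 123053.0 on the TAC arrays and 112034.0 to 121389.5 on the sham arrays. The summed intensity of 7 satellite glia markers was 21366.7 to 27622.6 on the TAC arrays and 27613.4 to 30027.7 on the sham arrays, lowest on TAC B. Of these 7, 3 averaged higher in TAC ganglia and 4 lower, and Glul was highest on TAC B. In whole ganglia, fewer cells of a type and less RNA per cell cannot be told apart. Array TAC B stood furthest from the rest (mean correlation with the other arrays 0.984, against up to 0.990). It was the highest array for 14 of the 60 chaperone genes (23.3%, against 25.7% of all tested genes). For 13 it was the lowest (21.7%, against 22.7%), so both shares were near those of all genes.

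Heat shock chaperones bind unfolded stretches of other proteins and help them fold, stay soluble or reach degradation. HSP70 proteins do this in cycles of ATP binding and release: J proteins bring the substrate and start ATP hydrolysis, and BAG and HSP110 proteins release the nucleotide. HSP90 acts later, on kinases, hormone receptors and other clients, with co-chaperones that set its pace. Some members are always made at a high level, among them Hspa8. Others are induced when misfolded protein frees heat shock factor 1 to bind heat shock elements, repeats of the unit nGAAn in alternating orientation, in their promoters. In long-lived neurons, J proteins also serve synaptic vesicles and the release of clathrin coats.

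No chaperone gene passed the test between TAC and sham ganglia. limma called 0 of the 60 genes at an adjusted p under 0.05, where it called 0 of all 17550 tested probe sets (0.0%). The smallest adjusted p of a member was 0.512. At an unadjusted p under 0.05, 3 members were higher in TAC ganglia (5.0%, against 5.43% of all tested genes) and 6 were lower (10.0%, against 3.32%). On 3 members every TAC array lay above every sham array (5.0%, against 8.78% of all tested genes), and on 13 every TAC array lay below every sham array (21.7%, against 9.09%). The share of higher members was thus near or under that of all genes, and the share of lower members was above it by both counts. Over all members the median log2 difference, TAC minus sham, was -0.02, beside 0.02 over all tested genes, and 42 of the 60 lay within 0.2 of no difference. One of the 3 higher members, Hspb6, had a sham mean under the floor, and without it 2 of 59 were higher. The most negative differences were those of Ahsa2, Hspa1b, Hsph1, Dnajb1 and Ahsa1, which averaged 0.32 to 0.66 lower on the log2 scale in TAC ganglia. All 5 are on a list of 16 members named heat-inducible, which also holds Hspa8. The list was drawn up with its lower median already seen. On it, 9 genes lay within 0.2 of no difference and 4 averaged higher.

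**Figure D1:**
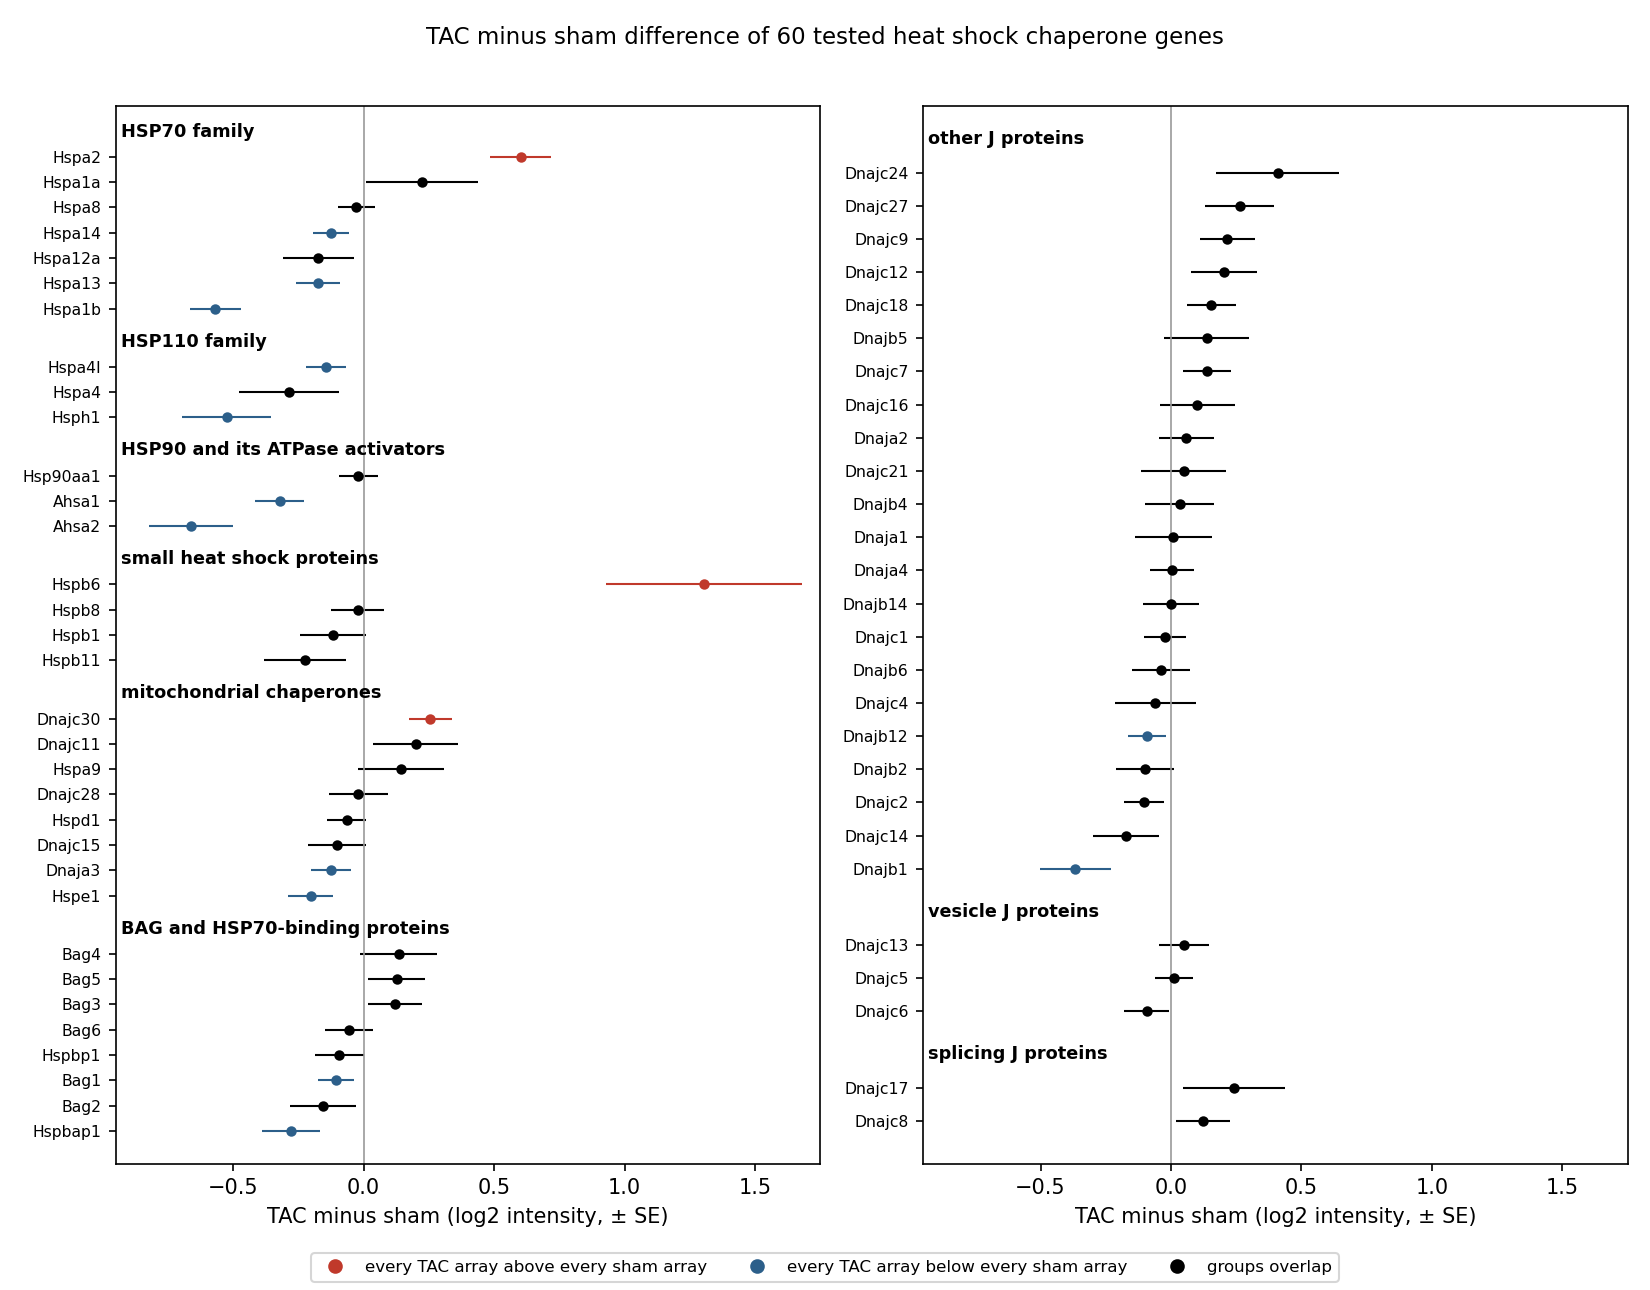
Log2 difference in intensity between TAC and sham ganglia for each of the 60 tested chaperone genes (horizontal axis, TAC minus sham), grouped by role, with bars for the moderated standard error (3 arrays a group). Red points are genes with every TAC array above every sham array, blue points the reverse, black points genes whose groups overlap. The red points are 3 (Hspa2, Hspb6 and Dnajc30), the blue points are 13, and Ahsa2 at -0.66 and Hspb6 at 1.30 mark the ends. The sham mean of Hspb6 was under the floor of 4.

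Sequences of promoters are printed for 4 of the genes that lay lower in TAC ganglia, 3 with and 1 without letters of a heat shock element, so that they can be read beside the values. Among members with a promoter window that lay lower without overlap, only these 3 have such letters. Ahsa1, Bag1, Dnaja3, Dnajb1, Dnajb12, Hspa14, Hspa4l and Hspbap1 have none, like the printed Ahsa2. Each runs from 250 bases before to 50 bases after the annotated start, 5' to 3' on the strand of the gene, from RefSeq on assembly GRCm38.p6. Capitals mark matches to GAANNTTC or TTCNNGAA, in which 2 units of the element face each other, and overlapping matches run together. Hspa1b lies at chr17:34959189-34959488 on the minus strand, Hsph1 at chr5:149636287-149636586 on the minus strand, Hspe1 at chr1:55087898-55088197 on the plus strand and Ahsa2 at chr11:23497990-23498289 on the minus strand.
Hspa1b: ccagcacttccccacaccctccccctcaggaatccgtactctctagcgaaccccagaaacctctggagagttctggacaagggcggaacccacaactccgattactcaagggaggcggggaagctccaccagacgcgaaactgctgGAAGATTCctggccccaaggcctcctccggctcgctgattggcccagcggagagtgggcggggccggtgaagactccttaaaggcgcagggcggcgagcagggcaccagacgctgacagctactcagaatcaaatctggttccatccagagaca
Hsph1: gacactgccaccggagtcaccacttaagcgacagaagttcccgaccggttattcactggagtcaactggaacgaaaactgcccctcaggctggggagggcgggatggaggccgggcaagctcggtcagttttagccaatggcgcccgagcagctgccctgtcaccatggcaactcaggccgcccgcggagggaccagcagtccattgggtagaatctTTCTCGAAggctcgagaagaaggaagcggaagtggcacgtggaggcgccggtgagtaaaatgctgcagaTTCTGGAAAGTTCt
Hspe1: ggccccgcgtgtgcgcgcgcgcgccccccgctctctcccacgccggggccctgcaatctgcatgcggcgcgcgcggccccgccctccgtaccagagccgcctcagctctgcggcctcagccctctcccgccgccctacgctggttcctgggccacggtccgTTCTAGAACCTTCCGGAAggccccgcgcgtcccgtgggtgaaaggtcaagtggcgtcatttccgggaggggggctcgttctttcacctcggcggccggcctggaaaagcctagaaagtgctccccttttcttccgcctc
Ahsa2: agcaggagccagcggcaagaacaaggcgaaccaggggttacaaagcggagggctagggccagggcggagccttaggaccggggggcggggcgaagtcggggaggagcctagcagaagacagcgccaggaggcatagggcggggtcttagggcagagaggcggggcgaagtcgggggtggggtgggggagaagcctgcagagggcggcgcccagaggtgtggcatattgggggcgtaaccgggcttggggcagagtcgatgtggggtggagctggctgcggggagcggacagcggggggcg
The match in the Hspa1b window begins 104 bases before the start. In the Hspe1 window the matches begin 89 to 79 bases before the start and join into a run of 4 units, and the window overlaps that of Hspd1, which is read from the opposite strand. The Hsph1 window has a match beginning 33 bases before the start and a run of 3 units after it, and the Ahsa2 window has none of these letters. How often they occur, and how the genes with and without them differed, is given after the families.

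Among the HSP70 genes, Hspa1b and Hspa2 stood on opposite sides. Hspa1b, an inducible HSP70, had log2 intensities of 8.20, 8.45 and 8.29 in TAC ganglia, against 8.99, 8.86 and 8.79 in sham ganglia. No TAC array reached the lowest sham array, and the difference was -0.57 (SE 0.10, 95% confidence interval -0.81 to -0.33; limma unadjusted p = 0.000961, adjusted p = 0.512), or 1.48-fold lower. Its further probe sets were at -0.40, with overlap, and -0.57, without, so all 3 pointed the same way. Hspa1a is a neighbouring copy whose promoter window matches that of Hspa1b at 296 of 300 bases, and probes can read both genes. The probe set named Hspa1a had 6.39, 7.26 and 6.70 in TAC ganglia, against 6.63, 6.61 and 6.45 in sham ganglia. Here TAC A was below all sham arrays and the other TAC arrays above them, the difference was 0.22 (SE 0.22; limma adjusted p = 0.728), and it was -0.01 without TAC B. The split between the copies is therefore uncertain.

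Hspa2, an HSP70 best known for its part in sperm development, was the member with the highest difference among genes above the floor on all arrays. Its log2 intensities were 8.47, 8.87 and 8.72 in TAC ganglia, against 8.13, 8.11 and 8.03 in sham ganglia. Every TAC array lay above every sham array, by 0.60 on average (SE 0.12, 95% confidence interval 0.32 to 0.88; limma unadjusted p = 0.0017, adjusted p = 0.512), or 1.52-fold. The constitutive Hspa8, which among other tasks strips clathrin from vesicles, had 14.73, 14.80 and 14.82 in TAC ganglia, against 14.84, 14.78 and 14.81 in sham ganglia. These groups overlapped, with a difference of -0.03 and a 95% confidence interval of -0.20 to 0.15. All 4 of its probe sets had negative differences, from -0.25 to -0.01, and on 1 of them, at -0.12, every TAC array lay below every sham array. Hspa13, an HSP70 relative of the endoplasmic reticulum and other membranes, and Hspa14, which acts at the ribosome, lay 0.17 and 0.13 lower in TAC ganglia without overlap (limma adjusted p = 0.557 and 0.585). The further Hspa13 probe sets overlapped at -0.02 and 0.35, and the mean of its probe sets was at 0.05. On the brightest probe sets of the 7 tested HSP70 genes, 2 averaged higher and 5 lower, and the median was -0.13.

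**Figure D2:**
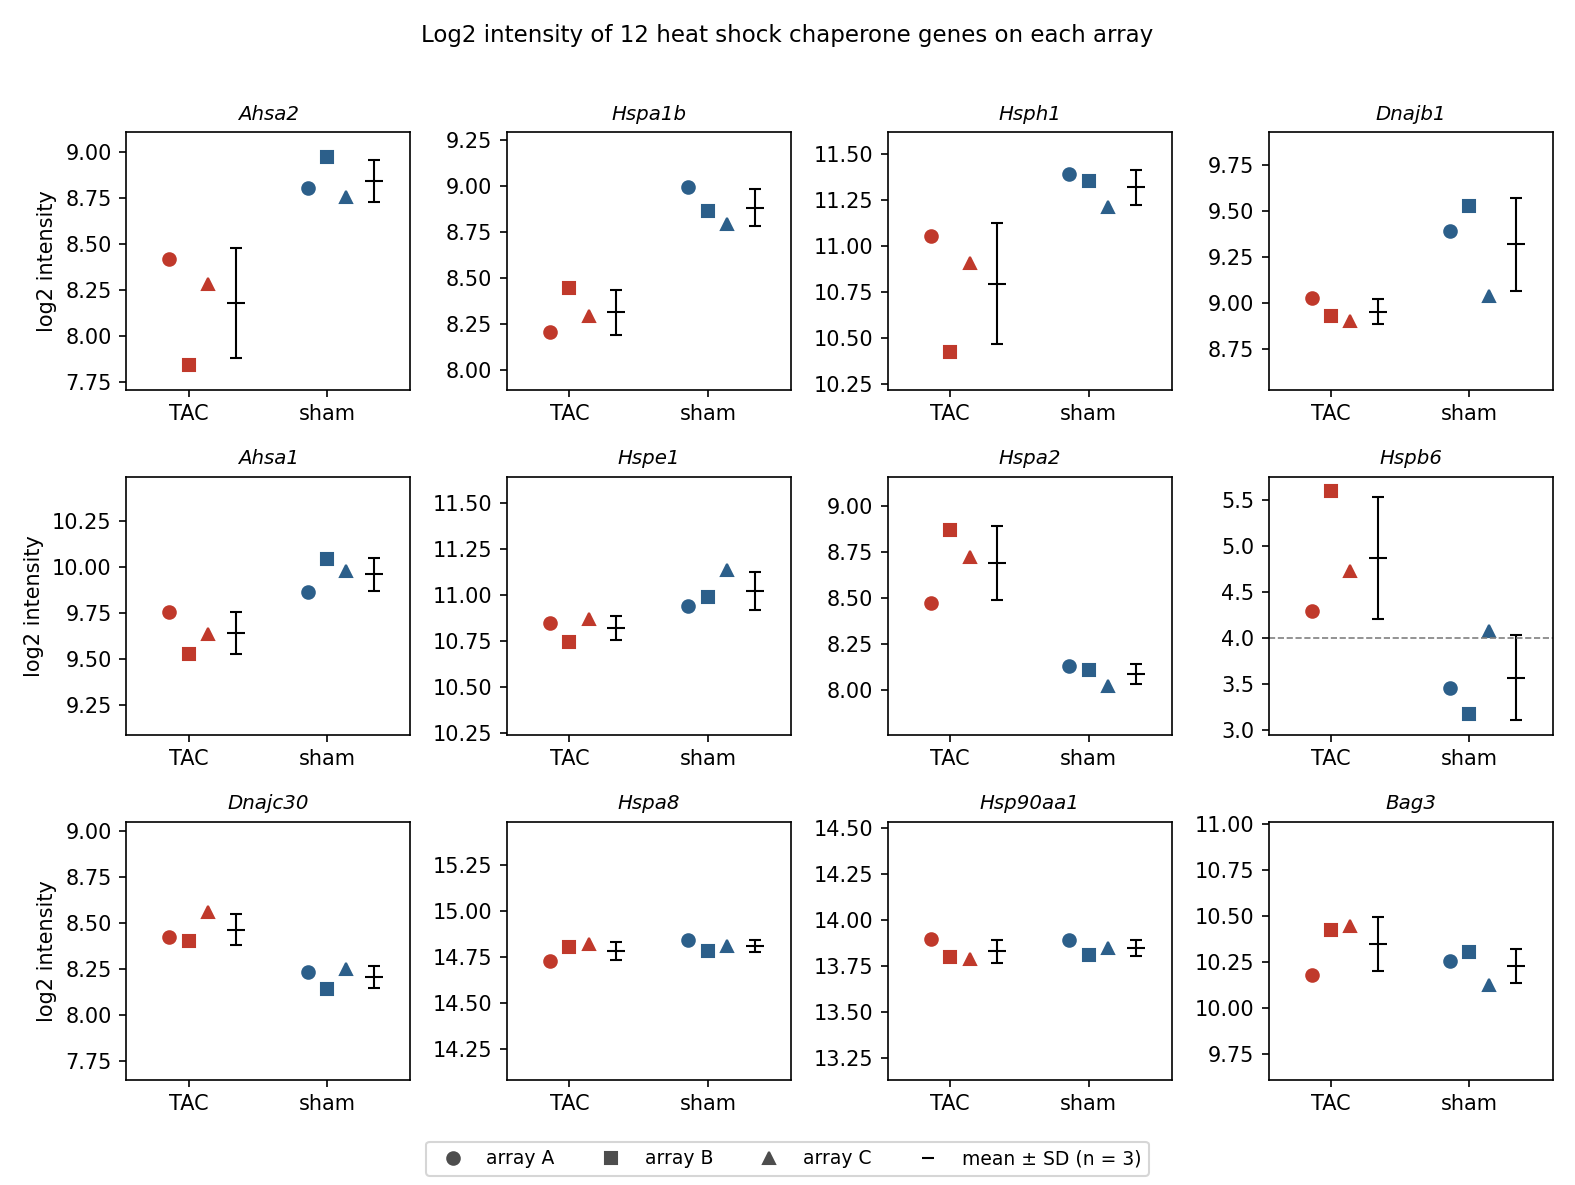
Log2 intensity (vertical axis; each panel spans its own range) of 12 chaperone genes on each TAC array (left, red) and each sham array (right, blue), with symbols for the array letters and bars for the mean and SD of 3 arrays. The dashed line in the Hspb6 panel is the floor of 4. Ahsa2, Hspa1b, Hsph1, Dnajb1, Ahsa1 and Hspe1 have every TAC point below every sham point, Hspa2, Hspb6 and Dnajc30 the reverse, and Hspa8, Hsp90aa1 and Bag3 overlap.

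The HSP110 proteins free HSP70 of its nucleotide and hold unfolded protein. The brightest probe sets of all 3 genes averaged lower in TAC ganglia, but with the mean of all probe sets Hspa4 was at 0.15 and Hspa4l at 0.00. Hsph1, the heat-inducible one, had log2 intensities of 11.05, 10.42 and 10.91 in TAC ganglia, against 11.39, 11.36 and 11.21 in sham ganglia. The groups did not overlap, TAC B was lowest, and the difference was -0.52 (SE 0.17; limma unadjusted p = 0.0199, adjusted p = 0.542). It was -0.34 without TAC B and -0.65 without TAC A. The further Hsph1 probe set was at -0.42, also without overlap. Hspa4l lay 0.14 lower without overlap, while its further 4 probe sets ran from -0.28 to 0.35. Hspa4 showed the plainest disagreement between probe sets of 1 gene. The brightest was at -0.29, with 11.25, 10.53 and 11.10 in TAC ganglia, against 11.37, 11.17 and 11.19 in sham ganglia. A further one was at 0.59, with 9.37, 10.03 and 9.27 in TAC ganglia, against 9.09, 8.89 and 8.92 in sham ganglia. TAC B was lowest of all arrays on the brightest probe set and highest on the further one, so no direction is given for Hspa4.

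Both genes of the Ahsa family, which speeds the ATPase of HSP90, lay lower in TAC ganglia without overlap, while the groups overlapped for Hsp90aa1; the gap between these differences was not tested. Ahsa2, a relative of the activator Ahsa1, had log2 intensities of 8.42, 7.84 and 8.28 in TAC ganglia, against 8.80, 8.97 and 8.75 in sham ganglia. This was the most negative difference of the tested members, at -0.66 (SE 0.16, 95% confidence interval -1.05 to -0.28; limma unadjusted p = 0.00539, adjusted p = 0.512), or 1.58-fold lower, and it was -0.49 without TAC B. TAC B, the lowest array for Ahsa2 and Hsph1, also had the lowest sum of satellite glia markers, though the glia marker Glul was highest there. The part of glia in the Ahsa2 and Hsph1 differences was not tested. Ahsa1, which binds HSP90 and stimulates ATP hydrolysis, had 9.76, 9.53 and 9.64 in TAC ganglia, against 9.87, 10.04 and 9.98 in sham ganglia. No TAC array reached a sham array for either gene, and the Ahsa1 difference was -0.32 (SE 0.09; limma unadjusted p = 0.0127, adjusted p = 0.516). Hsp90aa1, the inducible HSP90 of the cytosol, had 13.90, 13.80 and 13.79 in TAC ganglia, against 13.89, 13.81 and 13.84 in sham ganglia. Its groups overlapped, with a difference of -0.02 and a 95% confidence interval of -0.20 to 0.16. Its further probe sets were at 0.07 and -0.16.

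Of 8 small heat shock protein genes, which hold unfolding proteins without ATP, 4 passed the floor. Hspb6, known as an abundant chaperone of smooth, cardiac and skeletal muscle, had log2 intensities of 4.29, 5.59 and 4.72 in TAC ganglia, against 3.45, 3.17 and 4.07 in sham ganglia. Every TAC array was above the floor of 4 and above every sham array, and the sham mean of 3.56 was under the floor. The measured difference was 1.30, or at least 1.79-fold with each sham array set no lower than the floor (limma adjusted p = 0.516). Hspb6 passed the floor only through the TAC arrays, and of the sham arrays sham C alone was above it. Its mean over all arrays, 4.21, was the lowest of the tested members, and that of Hsf4, 3.99, the highest of the untested ones. Without TAC B the measured difference was 0.94.

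Markers of vessels, muscle and fat are given beside Hspb6, since the dissected tissue may hold them. The 7 endothelial markers summed to 125.9 to 190.4 on the TAC arrays, highest on TAC B, and 102.8 to 119.3 on the sham arrays, without overlap. Of these, Cldn5, Emcn and Esam passed the floor, with a median log2 difference of 0.53. The groups overlapped for each of these 3 (smallest limma adjusted p = 0.553). Pecam1, Cdh5, Kdr and Tek were under the floor on every array. Of 7 smooth muscle markers, Acta2 and Tagln passed the floor, while the other 5, Myh11, Des and Cnn1 among them, were under it on every array. Acta2 had 7.45, 8.47 and 7.60 in TAC ganglia, against 7.75, 7.76 and 7.80 in sham ganglia. The summed linear intensity of the smooth muscle list was 247.2 to 455.4 on the TAC arrays, highest on TAC B, and 271.2 to 293.0 on the sham arrays. That of 13 skeletal muscle markers was 1116.5 to 1409.9 on the TAC arrays and 801.6 to 2869.9 on the sham arrays. Of these, 6 passed the floor, with a median log2 difference of -1.89. The brightest, Myl1, averaged higher in TAC ganglia. The other 5, Myh4, Myh1, Acta1, Ckm and Tnnc2, averaged lower and were higher on sham A and sham C than on any other array. The 5 brown fat markers summed to 352.9 to 732.9 on the TAC arrays and 395.8 to 1573.8 on the sham arrays, and the 5 measured white fat markers to 1573.4 to 5223.7 on the TAC arrays and 2143.5 to 8106.3 on the sham arrays. Within each group Hspb6 and the fat sums were highest on the same array, TAC B and sham C. Without those 2 arrays the measured Hspb6 difference was 1.20, with 2 arrays a group and both sham values under the floor. The part of vessel, muscle and fat cells in the Hspb6 values was not tested. Hspb7 is a small heat shock protein of heart and muscle, and its mean of 3.46 was under the floor. Its brightest probe set had 3.32, 4.18 and 3.58 in TAC ganglia, against 3.25, 3.22 and 3.21 in sham ganglia. Of the 67 member probe sets under the floor, only this 1 lay higher in TAC ganglia without overlap, while 37 lay lower. A further Hspb7 probe set was among those 37, with 2.73 on each TAC array, against 2.76, 2.82 and 2.85 in sham ganglia. Another Hspb7 probe set overlapped, and no direction is read for this gene. The other tested small chaperones overlapped between the groups: Hspb1, the stress-inducible HSP27, was at -0.12, Hspb8, which works with Bag3 in autophagy, at -0.02, and Hspb11, better known as a subunit of intraflagellar transport, at -0.22. With 1 array left out, Hspb1 ran from -0.22 to -0.01 (without sham B), and Hspb11 from -0.38 without TAC A to -0.10 without TAC C.

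The mitochondrial chaperones had a median of -0.04 over 8 tested genes, 3 higher and 5 lower. Hspe1 and Hspd1 form the HSP10 and HSP60 chaperonin of the mitochondrial matrix and are transcribed from 1 shared promoter region. Hspe1 had log2 intensities of 10.85, 10.74 and 10.87 in TAC ganglia, against 10.94, 10.99 and 11.14 in sham ganglia. The groups did not overlap, the difference was -0.20 (SE 0.09; limma unadjusted p = 0.0556, adjusted p = 0.55), and the further Hspe1 probe set gave -0.20 as well. Hspd1 had 11.55, 11.49 and 11.54 in TAC ganglia, against 11.63, 11.62 and 11.52 in sham ganglia, and its groups overlapped at -0.06. Dnajc30, a J protein of the inner membrane that binds the ATP synthase, was the 1 mitochondrial member with every TAC array above every sham array. It had 8.43, 8.40 and 8.56 in TAC ganglia, against 8.23, 8.14 and 8.25 in sham ganglia, a difference of 0.26 (SE 0.08; limma unadjusted p = 0.0189, adjusted p = 0.532). Dnaja3, the J protein partner of the matrix HSP70, lay 0.12 lower without overlap, and Dnajc11, of the inner membrane organising system, was at 0.20 with overlap and at 0.04 without TAC B.

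Among the J proteins of the cytosol and other membranes, 14 of 22 averaged higher in TAC ganglia and 8 lower, around a median of 0.02. Dnajb1, the heat-inducible partner of HSP70, had log2 intensities of 9.03, 8.93 and 8.90 in TAC ganglia, against 9.39, 9.53 and 9.04 in sham ganglia. The groups did not overlap, though sham C came near the TAC arrays, and the difference was -0.37 (SE 0.14; limma unadjusted p = 0.0339, adjusted p = 0.542). Its further probe set overlapped at -0.24. The inducible Dnaja1 and Dnajb4 were at 0.01 and 0.03. Their sign turned negative with arrays centred on the median. The J proteins with the smallest p after Dnajb1 averaged higher with overlapping groups: Dnajc9, a histone co-chaperone, was at 0.22, Dnajc27, fused to a Rab-like GTPase, at 0.26, and Dnajc24, of diphthamide synthesis, at 0.41 (limma adjusted p = 0.564 to 0.6). Single arrays moved these values: Dnajc9 was at 0.14 without TAC B, Dnajc27 at 0.16 without sham C and Dnajc24 at 0.17 without TAC C. The further Dnajc27 probe set was at -0.18, and the mean of its probe sets at 0.04. Dnajc12, a co-chaperone of aromatic amino acid hydroxylases such as tyrosine hydroxylase, had 9.76, 10.17 and 9.84 in TAC ganglia, against 9.80, 9.72 and 9.63 in sham ganglia. TAC A lay within the sham values, and the difference was 0.20 (SE 0.13; limma adjusted p = 0.617).

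On their brightest probe sets the vesicle J proteins lay within 0.2 of no difference. Dnajc5, the cysteine string protein that guards SNARE proteins at synaptic vesicles, had 10.40, 10.43 and 10.36 in TAC ganglia, against 10.43, 10.40 and 10.33 in sham ganglia. Its difference was 0.01, and its sign turned negative with arrays centred on the median. The 5 tested Dnajc5 probe sets ran from -0.09 to 0.30, and that at -0.09 had every TAC array below every sham array. Dnajc13, an endosomal J protein, was at 0.05. Dnajc6, the neuronal auxilin that recruits Hspa8 to clathrin coats, was at -0.09 on its brighter probe set and 0.57 on a dimmer one, both with overlap. The splicing-linked Dnajc8 and Dnajc17 were at 0.12 and 0.24 with overlap. Dnajc8 was at 0.05 without TAC B, and Dnajc17 at 0.02 without sham B.

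The BAG proteins and other HSP70-binding proteins had a median of -0.07 over 8 genes. Bag3, the inducible BAG protein that sends clients to autophagy, had 10.18, 10.42 and 10.44 in TAC ganglia, against 10.26, 10.30 and 10.13 in sham ganglia. TAC A lay within the sham values and the difference was 0.12 (SE 0.10; limma adjusted p = 0.694), so Bag3 did not share the side of Hspa1b, Hsph1 and Dnajb1. Bag1, an exchange factor that links HSP70 to the proteasome, lay 0.11 lower in TAC ganglia without overlap, and Bag2, an inhibitor of the ubiquitin ligase CHIP, was at -0.15 with overlap and ran from -0.25 (without TAC C) to -0.09 (without sham A) with 1 array left out. Hspbap1, named for its binding to HSP27, had 4.96, 4.75 and 4.94 in TAC ganglia, against 5.19, 5.30 and 4.99 in sham ganglia. That is -0.28 (SE 0.11; limma unadjusted p = 0.0429, adjusted p = 0.546) at a dim level.

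**Figure D3:**
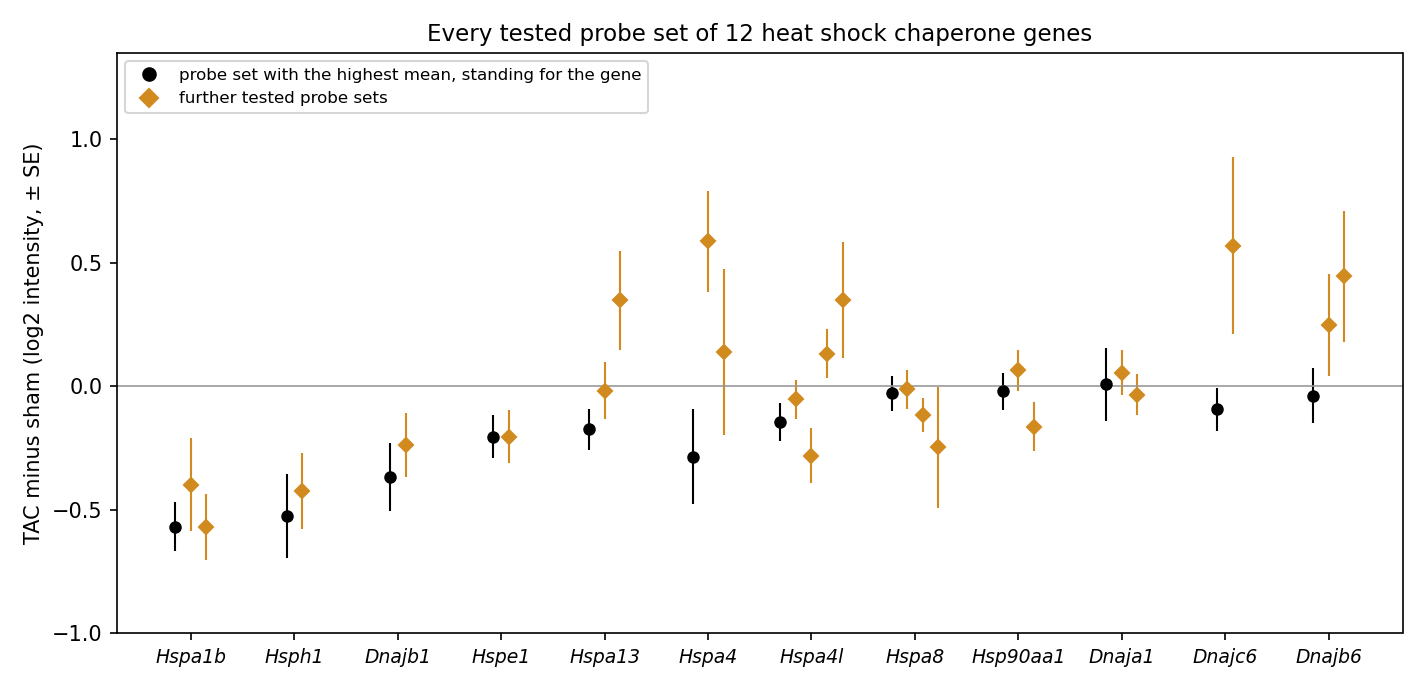
Log2 difference in intensity, TAC minus sham (vertical axis), for every tested probe set of 12 chaperone genes, with bars for the moderated standard error (3 arrays a group). Black circles are the brightest probe set, which stands for the gene, and orange diamonds the others. Hspa1b, Hsph1, Dnajb1 and Hspe1 have all probe sets below 0, whereas Hspa4 spans -0.29 to 0.59.

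Several probe sets were tested for 29 of the 60 genes. They pointed in 1 direction for 17 genes and in both for 12. With the mean of all tested probe sets of a gene in place of the brightest, the median over the members was 0.02 instead of -0.02, and 6 members with a negative difference on their brightest probe set averaged higher in TAC ganglia: Dnajc6 at 0.24, Dnajb6 at 0.22, Hspa4 at 0.15, Hspa13 at 0.05, Dnajc14 at 0.01 and Hspa4l at 0.00. No member turned the other way. The plot of probe sets shows that Hspa1b, Hsph1, Dnajb1 and Hspe1 did not depend on that choice for their direction.

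The 17 members left untested were Dnajb3, Dnajb7, Dnajb8, Dnajb13, Dnajc5b, Dnajc5g, Dnajc22, Dnajc25, Hsf2, Hsf4, Hsf5, Hspa1l, Hspa12b, Hspb2, Hspb3, Hspb7 and Hspb9. They include the 3 measured heat shock factor genes and chaperones best known from testis (Hspa1l, Hspb9) or muscle (Hspb2, Hspb3, Hspb7). Hsf1, the gene of heat shock factor 1, and the HSP90 gene Hsp90ab1 had no probe set with 1 symbol. Neither is covered by the values given here. Of all 67 member probe sets under the floor, 53 had a lower mean in TAC ganglia, and over the whole array 87.0% of dim probe sets did. No direction is read from these values, which lie where the background correction compresses intensities.

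The list named heat-inducible held 16 members, the constitutive Hspa8 among them. Of these 16 (Hspa1a, Hspa1b, Hspa8, Hsph1, Hspa4l, Hsp90aa1, Ahsa1, Ahsa2, Hspb1, Hspb8, Dnaja1, Dnajb1, Dnajb4, Bag3, Hspd1 and Hspe1), 4 averaged higher and 12 lower, and the median was -0.09. On 7 of them every TAC array lay below every sham array (9.09% of all tested genes did), and on 0 the reverse (8.78%). This list was drawn up with earlier results of these data known, and its lower median had been seen then, so its count is a description. The list of 15 tested HSP90 co-chaperones had 5 genes averaging higher and 10 lower around a median of -0.07, and 6 lay below without overlap (9.09% of all tested genes did) and 1 above, the ubiquitin ligase adaptor Sugt1 at 0.14 (8.78%). Its smallest p values belonged to 3 that lay lower: Chordc1, a heat-inducible HSP90 partner, at -0.34, Stip1, which bridges HSP70 and HSP90, at -0.31, and Fkbp4, an immunophilin of steroid receptor complexes, at -0.22 (limma adjusted p = 0.542 each). The 14 genes of the TRiC chaperonin, which folds actin and tubulin, and of its helper prefoldin split into 8 higher and 6 lower about a median of 0.01. Without overlap, 2 lay below (9.09% of all tested genes did) and 2 above (8.78%). Among them Cct5 was at -0.28 and Cct4 at -0.20, both below without overlap, and prefoldin subunit Pfdn2 at 0.33, above without overlap (limma adjusted p = 0.516 to 0.556). Mitochondrial proteases and import partners had a median of 0.01 over 11 genes, with the disaggregase Clpb at 0.20, the protease subunit Clpx at 0.52 and the protease Htra2 at -0.11. Clpb lay above and Htra2 below without overlap, though Htra2 was at 0.12 with the mean of its probe sets, while Clpx overlapped and was at 0.22 without sham B and 0.26 without TAC B. The other heat shock genes had a median of -0.05 over 8, with Mrpl18 at -0.17, the lens and muscle chaperone Cryab at -0.24 and the collagen chaperone Serpinh1 at -0.17, all with overlap. Cryab was at -0.12 without TAC C, and Serpinh1 at -0.01 without TAC B.

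**Figure D4:**
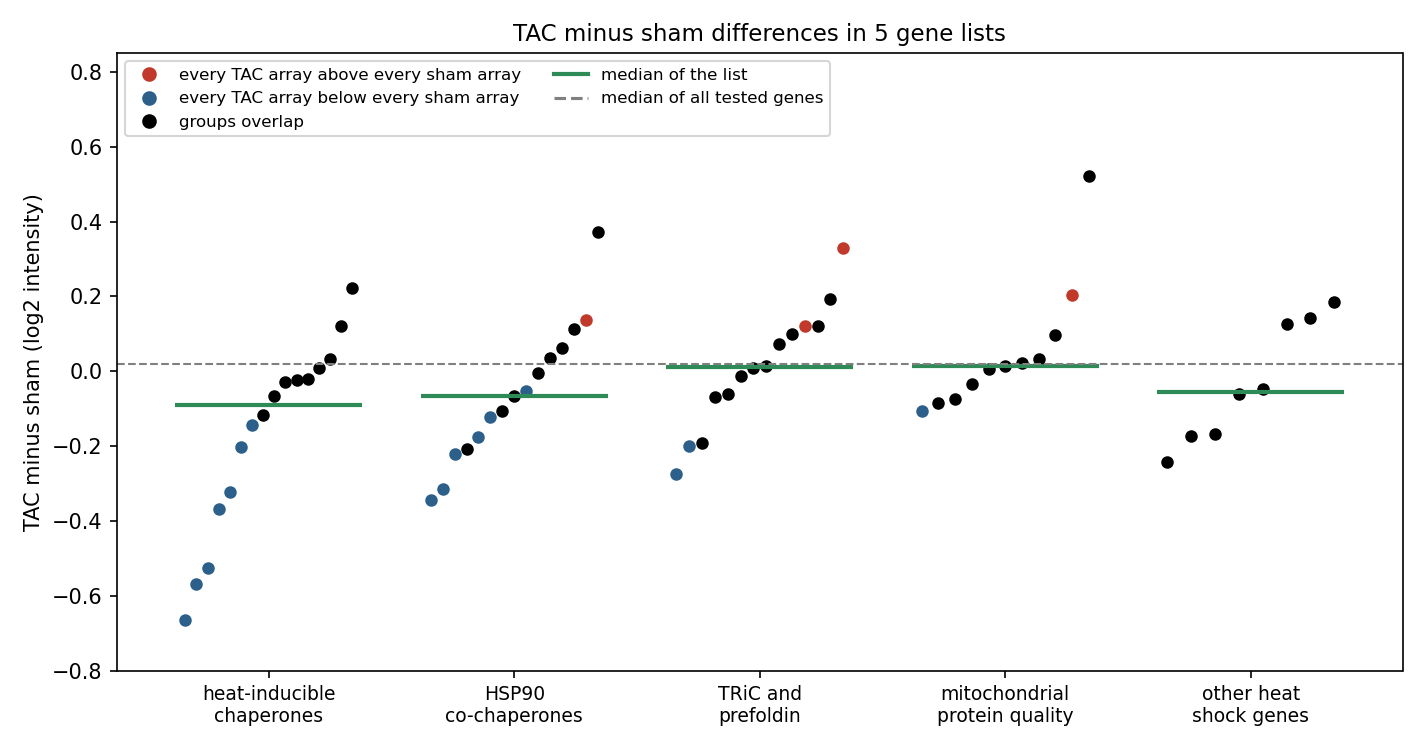
Log2 difference in intensity, TAC minus sham (vertical axis), of every tested gene in the inducible chaperone list and 4 lists of partner genes, ordered by value within each list. Green bars are list medians, the dashed line is the median of all tested genes (0.02), and colours mark genes whose groups do not overlap. The inducible list has 7 blue points and no red one, with a median of -0.09, and the TRiC and prefoldin list is centred at 0.01.

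Letters of the heat shock element were counted in the promoter windows of the 49 tested members that RefSeq's table held, 67 windows in all. A run of 3 units (GAANNTTC followed by NNGAA, or TTCNNGAA followed by NNTTC) occurred in 6 windows (9.0%), of Hspd1, Hspe1, Hsph1 and Dnajb6, against 0.603% of all 32851 windows in the table. The Hspd1 and Hspe1 windows overlap, as do those of Hsph1 and those of Dnajb6, so these 6 windows hold fewer separate sites. Either match of 2 units occurred in 16 windows (23.9%), against 15.056% of all windows, and in 11 of the 20 windows of the inducible list (55.0%). Both patterns read the same on either strand, and a run of 3 units holds a match of each. The 14 genes with a match of 2 units had a median log2 difference of -0.01, 7 higher and 7 lower. Among these 7 higher genes is Hspb6, which passed the floor only through the TAC arrays. The 35 genes without a match had a median of -0.09, 13 higher and 22 lower. No median without Hspb6 is given, and the gap between these medians was not tested. Hspa1b and Hsph1 were among those with a match, and Ahsa2, Ahsa1 and Dnajb1 were not, so genes of both kinds stood at the lower end of the differences. A match of letters is not a bound site, and a window without one says nothing of elements elsewhere.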

How the data were processed

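RNA of stellate ganglia from 3 TAC and 3 sham mice was measured on 6 Affymetrix mouse arrays. Per the submitters' processing notes, the authors used GCRMA to make the deposited probe set intensities, which are linear. The GCRMA version is not given in the sources used here. GCRMA corrects background, normalizes between arrays and compresses values near background. Intensities were log2-transformed here with no pseudocount. Of 45101 probe sets, 64 were controls and 27487 had a mean log2 under 4; the remaining 17550 were tested with limma 3.58.1 in R 4.3.3 (lmFit and eBayes, two-sided), TAC against sham, with Benjamini-Hochberg adjustment over all of them and a threshold of 0.05. Symbols came from GEO's platform annotation (34958 probe sets with 1 symbol, 932 with several, 9211 with none); all 77 member symbols matched RefSeq's table for GRCm38.p6. The brightest tested probe set stood for a gene. For 1 gene, 3 arrays against 3 allow an exact permutation p no smaller than 0.1, and so few arrays limit the precision.

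The members, role classes, partner lists and markers were chosen with earlier results of these data known. Genes were named by rule: every tested inducible member, up to 4 of smallest p in each role class, up to 3 in each partner list, and every member without overlap and with a log2 difference of at least 0.3 in size. Hspa2, Hspb6, Dnajc30 and the probe sets beside a gene fall under this rule, whereas Dnajc12, Hspb7, Sugt1, Dnajb6, Dnajc14 and the markers were named after their values were seen. Lists are described by counts and medians, with no set test. The fit was tested on simulated data with planted changes. Alternatives were another floor or none, array weights, another variance model, quantile normalization, median centring, the mean of all probe sets, the array letter as a block, each array left out, and both sham C and TAC B left out, the last because earlier results of these data showed fat transcripts on them. No table columns were left unused.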

Additional observations from a re-analysis of the deposited data

How the results depend on the processing

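Under all 15 alternatives limma called 0 chaperone genes, and the directions of Hspa1b, Ahsa2, Ahsa1, Hsph1, Dnajb1, Hspe1, Hspa2 and Dnajc30 did not change. Hspb6 is left out here, since its sham mean was under the floor. The groups of the genes named do not overlap, so leaving out or weighting arrays could not turn their sign. Another floor, variance model or block leaves the difference as it is. Only quantile normalization, median centring and, with several probe sets, their mean could have turned it. Hspa1b, Ahsa2 and Hspa2 had an unadjusted p under 0.05 in all 15, Ahsa1 in 14, Hsph1 in 13, Dnajc30 in 12 and Dnajb1 in 9. Over the whole array the number of called probe sets was 2 with the mean of all tested probe sets of a gene, and between 0 and 1 when any 1 array was dropped (1 without TAC B, 1 without TAC C). The members' median was -0.0398 after quantile normalization, -0.0681 with arrays centred on the median, 0.0173 with the mean of all probe sets, -0.0327 without sham C and TAC B, and between -0.0432 and -0.0200 when any 1 array was dropped. At an unadjusted p under 0.05, array weights gave 6 higher members and leaving out 1 array 2 to 5 (5 without TAC A). No floor gave 15 lower members of 77, and leaving out 1 array 3 to 6 (3 without sham B). With no floor, dim probe sets enter, and over the whole array 87.0% of these had a lower mean in TAC ganglia. Shares of all genes are not given for the alternatives, so such counts are not read as results about the members. The letters did not pair the arrays (correlation of deviations 0.084, -0.003 and -0.166 for A, B and C), and with the letter as a replicate block 0 members were called, 3 were higher and 5 lower at an unadjusted p under 0.05, and the median was -0.02.

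Some differences turned sign, Hspa4 at -0.2855 on its brightest probe set among them, and none of them passed a threshold in either setting. With the mean of all probe sets Dnajc6 was at 0.2388, Hspa13 at 0.0523, Hspa4 at 0.1465, Hspa4l at 0.0013 and Htra2 at 0.1174. With arrays centred on the median Dnaja1 was at -0.0362, Dnajb4 at -0.0128 and Dnajc5 at -0.0343. After quantile normalization Hspa8 was at 0.0935, and with array weights Dnaja1 was at -0.0143. Without sham C and TAC B, Dnaja1 was at -0.0090, Dnajb4 at -0.0947, Dnajc5 at -0.0326, Hspa1a at -0.0708 and Hspb8 at 0.0255. With 1 array left out, Dnaja1 ran from -0.1316 to 0.1429, Dnajb4 from -0.0549 to 0.1443, Dnajc13 from -0.0165 to 0.1131, Dnajc5 from -0.0155 to 0.0318, Hsp90aa1 from -0.0545 to 0.0020, Hspa1a from -0.0138 to 0.4191, Hspa8 from -0.0456 to 0.0005 and Hspb8 from -0.0954 to 0.0264. The causes were not tested. No scaling moved the median of all probe sets by over 0.1.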
